A study of Mus musculus with 6 samples.

Results

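The Krüppel-like factors described here were 10 transcription factor genes, Klf2, Klf3, Klf4, Klf5, Klf6, Klf7, Klf9, Klf10, Klf11 and Klf13. They were chosen by gene symbol, by a rule that holds no measured value but was written with earlier results of these data known, from the 17 Klf genes and 54532 gene rows of one RNA sequencing table. The table held 6 libraries of cells described as mouse vascular smooth muscle cells, which form the contractile layer of arteries. In 3 libraries the cells had received an adenoviral vector with a control plasmid (Ad-Con, genotype given as WT), and in 3 a vector with a plasmid for overexpression of PDK4 (Ad-PDK4). PDK4, a kinase of the mitochondrial matrix, switches off pyruvate dehydrogenase by phosphorylation and so holds back the entry of pyruvate into the TCA cycle. According to the study's methods the cells were primary, isolated from the abdominal aorta of wild-type mice and passaged in culture, and its results state that both groups were then exposed to angiotensin II, which the labels do not mention. Libraries without the virus, or without angiotensin II, were not analysed here. The study describes the 3 libraries of a group as biological replicates but does not say whether they came from separate animals or cell isolations, so the p-values measure only the spread between these libraries. The comparison asks which of these regulators differ in expression between the libraries labelled Ad-PDK4 and those labelled Ad-Con.

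Krüppel-like factors bind GC boxes and CACCC elements in promoters through C2H2 zinc fingers at or near the end of the protein, a DNA-binding unit that they share with the Sp factors. Outside the fingers the family members differ, and they recruit different partners. KLF2, KLF4, KLF5, KLF6 and KLF7 can activate transcription through histone acetyltransferases, KLF3 is a repressor that binds the corepressor CtBP, and KLF9, KLF10, KLF11 and KLF13 carry a motif for the corepressor Sin3. In vascular smooth muscle KLF4 is known for repressing contractile genes and KLF5 for accompanying the growth and matrix production of the synthetic state. KLF2 is best known as a flow-induced factor of the endothelium, and KLF10 and KLF11 were described as early genes induced by TGF-beta.

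The stretch that defines the family is shown for Klf2, Klf4, Klf5 and Klf10, which had the largest changes in level among the 10 genes. In all 17 Klf genes the 3 zinc fingers, read from the longest coding transcript in the GENCODE M21 annotation, spanned 243 coding bases with no insertion or loss. The DNA is given 5′ to 3′ on the coding strand with introns removed, on the GRCm38 build, and the capitals mark the codons of the zinc-binding cysteines and histidines.
Klf2 zinc fingers, codons 273 to 353 of 354, within chr8:72320170-72320913, plus strand: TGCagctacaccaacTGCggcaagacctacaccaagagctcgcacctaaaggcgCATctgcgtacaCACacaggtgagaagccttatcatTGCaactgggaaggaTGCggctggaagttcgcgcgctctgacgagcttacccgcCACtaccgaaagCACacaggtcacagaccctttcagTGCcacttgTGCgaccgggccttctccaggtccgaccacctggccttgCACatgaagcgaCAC
Klf4 zinc fingers, codons 402 to 482 of 483, within chr4:55528131-55529790, minus strand: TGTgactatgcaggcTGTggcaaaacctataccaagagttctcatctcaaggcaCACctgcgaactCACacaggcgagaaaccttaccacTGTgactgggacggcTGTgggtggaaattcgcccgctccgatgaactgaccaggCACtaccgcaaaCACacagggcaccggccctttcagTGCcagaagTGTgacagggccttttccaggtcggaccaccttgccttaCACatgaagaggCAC
Klf5 zinc fingers, codons 364 to 444 of 446, within chr14:99302242-99313320, plus strand: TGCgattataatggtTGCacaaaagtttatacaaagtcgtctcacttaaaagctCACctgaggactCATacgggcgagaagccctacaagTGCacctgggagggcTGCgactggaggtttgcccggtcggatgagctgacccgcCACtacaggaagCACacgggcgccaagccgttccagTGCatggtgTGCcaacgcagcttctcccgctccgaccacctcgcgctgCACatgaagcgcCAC
Klf10 zinc fingers, codons 370 to 450 of 479, within chr15:38295995-38296687, minus strand: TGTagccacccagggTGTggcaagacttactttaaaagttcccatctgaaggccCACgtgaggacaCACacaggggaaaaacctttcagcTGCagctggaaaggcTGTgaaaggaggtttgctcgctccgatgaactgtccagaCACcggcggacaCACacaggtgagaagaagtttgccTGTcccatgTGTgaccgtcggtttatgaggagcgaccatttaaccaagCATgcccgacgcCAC
The capitals fall at the same places in the 4 sequences, since the spacing of the zinc-binding residues does not vary. Over the 45 pairs of the 10 genes the identity of these 243 bases ran from 57.2% to 81.1% with a median of 64.6%. The closest pair was Klf6 and Klf7 at 81.1%, followed by Klf2 and Klf4 at 78.2% and by Klf10 and Klf11 at 76.1%. Klf4 and Klf5 shared 68.3%.

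The DNA just upstream of the transcription start is shown for the genes of the family that passed the test described below and had an entry in the RefSeq promoter table, namely Klf2, Klf4, Klf6 and Klf9. Of the 10 genes, 8 had an entry, and Klf5 and Klf10 had none. Each window holds the 250 bases before the RefSeq start on GRCm38.p6, written 5′ to 3′ along the gene, and the capitals mark CACCC and GGGCGG, the core letters of the CACCC element and the GC box, on either strand.
Klf2 upstream window, chr8:72318812-72319061, plus strand: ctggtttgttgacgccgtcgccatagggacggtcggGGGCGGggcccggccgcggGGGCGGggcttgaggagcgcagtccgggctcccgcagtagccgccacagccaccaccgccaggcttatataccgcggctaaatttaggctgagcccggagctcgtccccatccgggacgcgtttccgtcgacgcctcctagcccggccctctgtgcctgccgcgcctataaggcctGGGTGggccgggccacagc
Klf4 upstream window, chr4:55532476-55532725, minus strand: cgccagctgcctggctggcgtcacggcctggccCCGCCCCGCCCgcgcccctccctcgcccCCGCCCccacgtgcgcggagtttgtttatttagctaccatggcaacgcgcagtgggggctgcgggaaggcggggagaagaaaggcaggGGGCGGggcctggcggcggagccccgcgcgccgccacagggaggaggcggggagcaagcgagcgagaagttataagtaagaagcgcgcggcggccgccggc
Klf6 upstream window, chr13:5861239-5861488, plus strand: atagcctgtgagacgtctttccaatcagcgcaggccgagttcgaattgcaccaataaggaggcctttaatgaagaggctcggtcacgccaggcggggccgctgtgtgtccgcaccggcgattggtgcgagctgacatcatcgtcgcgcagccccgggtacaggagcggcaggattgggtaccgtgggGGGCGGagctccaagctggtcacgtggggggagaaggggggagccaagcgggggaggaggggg
Klf9 upstream window, chr19:23140976-23141225, plus strand: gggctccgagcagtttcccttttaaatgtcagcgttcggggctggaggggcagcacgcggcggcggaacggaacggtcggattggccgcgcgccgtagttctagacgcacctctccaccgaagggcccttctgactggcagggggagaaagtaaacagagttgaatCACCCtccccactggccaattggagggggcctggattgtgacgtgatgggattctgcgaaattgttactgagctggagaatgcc
The Klf4 window held 4 GGGCGG matches and no CACCC, and the Klf9 window held 1 CACCC and no GC box letters. The letters GGGCGG were found in 7 of the 8 windows and in 32.7% of all 32851 promoter windows of the same length. CACCC was found in 5 of the 8 windows and in 52.0% of all windows. The windows were rich in G and C, between 59.2% and 78.4% with a median of 71.4%, against a median of 52.4% over all promoters. None of the 8 windows held TATAAA (12.4% of all windows), a CArG box, the site of serum response factor (1.47%) or TGACGTCA, the cyclic AMP response element (1.55%), on either strand. Matches of the 2 marked motifs overlapped each other in none of the windows shown, and a match is a description of the sequence and not a binding site.

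The libraries held between 17588942 and 21861872 reads assigned to genes, so that 1 read in a gene of 1 kb was worth between 0.0453 and 0.0571 FPKM (fragments per kilobase of gene length, scaled to the size of the library). Each member had at least 142 reads in every library. Pdk4 itself, the gene named by the label, measured 9.50, 10.4 and 10.1 FPKM in the Ad-Con libraries and 7.67, 7.40 and 7.38 FPKM in the Ad-PDK4 libraries, and so was lower under the overexpression label (log2 fold change −0.42, limma adjusted p = 0.0011). The directions below are therefore those between the libraries labelled Ad-PDK4 and the libraries labelled Ad-Con, and whether reads from the plasmid reached this gene row is not known. Of 11 smooth muscle markers 5 passed the filter on low values, and the summed level of all 11 was between 172 and 173 FPKM in Ad-Con and between 135 and 145 FPKM in Ad-PDK4. The markers did not move as 1 group. Acta2, the smooth muscle actin (mean 78.0 FPKM in Ad-Con and 36.2 FPKM in Ad-PDK4), and Tpm2, a tropomyosin (27.8 and 22.1 FPKM), were called lower, Cald1, caldesmon (56.0 and 71.9 FPKM), was called higher, and Smtn, smoothelin (8.32 and 8.44 FPKM), and Lmod1, leiomodin (0.720 and 0.570 FPKM), were not called. Myh11, the smooth muscle myosin heavy chain, had at most 10 reads in any library, Tagln, transgelin, at most 20, and Myocd, the cofactor myocardin, at most 5. Mylk, Cnn1 and Des, also below the filter, were lower in Ad-PDK4 without overlap. Their means were 0.756, 0.466 and 0.186 FPKM in Ad-Con and 0.123, 0.247 and 0.0468 FPKM in Ad-PDK4. Of 8 macrophage markers Cd68, which is also expressed outside macrophages, was the only one above the filter and fell, and the 8 together summed to between 12.9 and 16.3 FPKM in Ad-Con and between 3.12 and 4.85 FPKM in Ad-PDK4. Ptprc, Tyrobp, C1qa, C1qb and C1qc were at 0 reads in every library. Of 6 fibroblast markers 5 were tested and 4 called lower, namely Dpt, Lum, Col1a1 and Col3a1, where 20.8% of all tested genes were. The sum of the 6 was between 1347 and 1456 FPKM in Ad-Con and between 575 and 662 FPKM in Ad-PDK4. Most of it was Col1a1 (mean 1055.5 FPKM in Ad-Con and 435 FPKM in Ad-PDK4). In Ad-Con the means of Col1a1, Dpt (192 FPKM) and Col3a1 (134 FPKM) exceeded that of Acta2, while those of Lum, Pdgfra and Pi16 did not. The name vascular smooth muscle is the study's, and the identity of the cells was not tested. Pdgfra was not called (20.5 and 19.9 FPKM, log2 fold change −0.05, limma adjusted p = 0.54). The part of these cell-type differences in the results below was not tested, and in bulk RNA fewer cells of a type and less RNA per cell cannot be told apart.

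Most of the family's 10 genes differed between the groups, and they did so in both directions. Klf2, Klf4, Klf5 and Klf6 were higher in the Ad-PDK4 libraries, Klf9 and Klf10 were lower, and Klf3, Klf7, Klf11 and Klf13 did not pass the test. The test was limma on log2(FPKM + 0.1) with adjustment over all 13423 genes that had a mean of at least 0.5 FPKM, and it called 42.7% of those genes, 21.8% higher and 20.8% lower. All 10 genes passed the filter, 4 of them being called higher and 2 lower. With a further limit of at least 2-fold, Klf5 was called higher and Klf10 lower, where 3.95% of all tested genes were called higher and 2.68% lower (6.63% in all). In 8 of the 10 genes the libraries of the groups did not overlap, which held for 54.3% of all tested genes. The median log2 fold change of the 10 genes was 0.16 and the median of its absolute size 0.41, against −0.003 and 0.25 over all tested genes. The plot of the FPKM values shows each library.

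**Figure D1:**
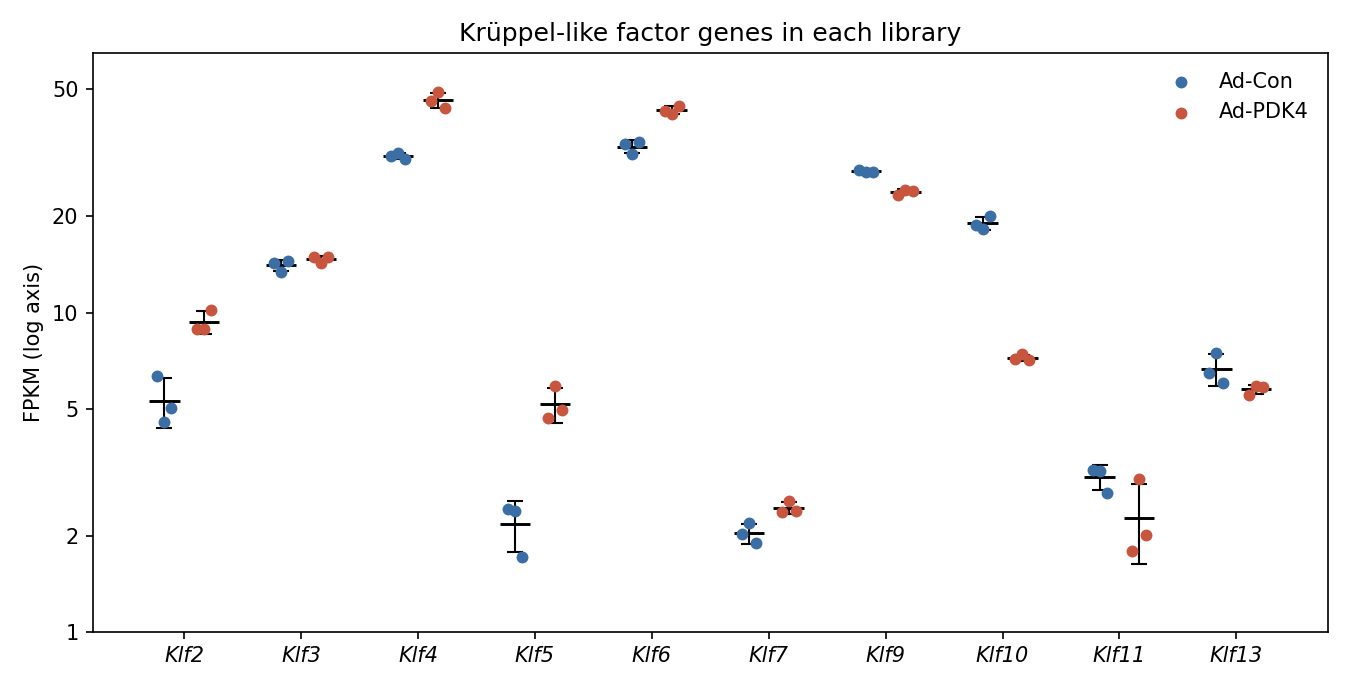
FPKM of the 10 Krüppel-like factor genes (log axis) in the 3 Ad-Con libraries (blue) and the 3 Ad-PDK4 libraries (red), with the mean as a long bar and the SD as error bars. Klf2, Klf4, Klf5 and Klf6 lie higher in every Ad-PDK4 library, Klf10 lies far lower, and only for Klf3 and Klf11 do the groups overlap.

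Klf4 and Klf5, the members best known from the synthetic state of smooth muscle, were both higher in the Ad-PDK4 libraries. Klf4 (ENSMUSG00000003032, chr4:55527143-55532466, minus strand) measured 31.0, 31.5 and 30.3 FPKM in Ad-Con and 45.8, 48.9 and 43.8 FPKM in Ad-PDK4. The Ad-Con libraries lay close together and every Ad-PDK4 library was well above them. The mean was 30.9 ± 0.624 FPKM in Ad-Con and 46.2 ± 2.55 FPKM in Ad-PDK4 (SD, n = 3 in each group), and Klf4 rose by 0.58 ± 0.05 (SE) on the log2 scale, a fold of 1.49 (95% interval 1.37 to 1.63, limma adjusted p = 0.00012). Klf5 (ENSMUSG00000005148, chr14:99298691-99315036, plus strand) was a far weaker transcript, at 2.43, 2.39 and 1.72 FPKM in Ad-Con and 4.67, 5.90 and 4.94 FPKM in Ad-PDK4. The lowest Ad-PDK4 library still exceeded the highest Ad-Con library by a wide margin. The mean of Klf5 was 2.18 ± 0.399 FPKM in Ad-Con and 5.17 ± 0.646 FPKM in Ad-PDK4, a log2 fold change of 1.22 ± 0.15 and a fold of 2.33 (1.83 to 2.97, limma adjusted p = 0.00048). These values rested on between 162 and 257 reads per library in Ad-Con and between 442 and 568 in Ad-PDK4. Klf5 thus had the largest rise of the 10 genes in relative terms, while Klf4 added the most FPKM.

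Klf2 and Klf6, which like Klf4 end directly after the fingers, were also higher, and Klf7, the closest relative of Klf6 by finger sequence, did not pass the test. Klf2 (ENSMUSG00000055148, chr8:72319033-72321656, plus strand) measured 6.33, 4.53 and 5.02 FPKM in Ad-Con and 8.90, 8.91 and 10.2 FPKM in Ad-PDK4. The groups did not overlap, although the Ad-Con libraries were spread. The mean was 5.29 ± 0.93 FPKM in Ad-Con and 9.34 ± 0.761 FPKM in Ad-PDK4, and Klf2 rose by 0.82 ± 0.12 on the log2 scale, a fold of 1.76 (1.45 to 2.15, limma adjusted p = 0.0013). The sum of 6 endothelial markers was between 0.617 and 0.798 FPKM in Ad-Con and between 0.885 and 1.18 FPKM in Ad-PDK4. Its rise came mainly from Kdr, a VEGF receptor and the only one of the 6 that passed the filter. Kdr had a mean of 0.536 FPKM in Ad-Con and 0.919 FPKM in Ad-PDK4 without overlap (log2 fold change 0.68, limma adjusted p = 0.0645). Pecam1 (mean 0.101 and 0.0651 FPKM) and Vwf (0.0585 and 0.0327 FPKM) had lower means in Ad-PDK4, with overlapping groups. Emcn was at 0 reads, Tek at 3 or fewer and Cdh5 at 4 or fewer. The part of endothelial cells in the Klf2 result was not tested. Klf6 (ENSMUSG00000000078, chr13:5861482-5870394, plus strand), an early-response factor found in many tissues, measured 33.7, 31.3 and 34.3 FPKM in Ad-Con and 42.7, 41.9 and 44.4 FPKM in Ad-PDK4. Each Ad-PDK4 library exceeded each Ad-Con library, by less than in Klf4. The mean of Klf6 was 33.1 ± 1.59 FPKM in Ad-Con and 43.0 ± 1.29 FPKM in Ad-PDK4, a rise of 0.38 ± 0.05 on the log2 scale and a fold of 1.30 (1.19 to 1.42, limma adjusted p = 0.001). Klf7 (ENSMUSG00000025959, chr1:64029447-64122282, minus strand), which is known from the development of neurons, measured 2.02, 2.19 and 1.89 FPKM in Ad-Con and 2.38, 2.57 and 2.39 FPKM in Ad-PDK4. Its groups did not overlap but the gap was small, and the log2 fold change of 0.26 (95% interval 0.02 to 0.49) missed the threshold (limma adjusted p = 0.077). It passed with limma-voom on recovered reads (0.26, adjusted p = 0.039), and in 3 of its 15 alternatives in all. The Klf7 value is uncertain for another reason, since 40.8% of the 50-base words of its longest transcript lie in the antisense gene Gm26649 as well, which was listed at 0 reads in every library, and the sources used here do not give whether counting used strand.

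Klf3, the CtBP-binding repressor, was the member whose groups lay closest. Klf3 (ENSMUSG00000029178, chr5:64803388-64832901, plus strand) measured 14.3, 13.4 and 14.5 FPKM in Ad-Con and 14.9, 14.3 and 14.9 FPKM in Ad-PDK4. The ranges of the groups overlapped. The log2 fold change of 0.07 had a 95% interval from −0.06 to 0.19 (limma adjusted p = 0.36), an interval that leaves room for only small differences in either direction. With between 2650 and 3709 reads per library Klf3 was among the most deeply covered members.

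The 4 members with a Sin3 motif all had negative log2 fold changes, of which those of Klf10 and Klf9 passed the test. Negative values were common, since the median over all tested genes was −0.003. Klf16, which is not a member, shared 75.3% of its finger bases with Klf13 but had a positive value. That value was 0.27 (95% interval 0.03 to 0.51) and was not called. Whether a fall goes with the Sin3 motif was not tested. Klf10 (ENSMUSG00000037465, chr15:38291463-38300706, minus strand), the TGF-beta-inducible early gene, measured 18.8, 18.3 and 20.04 FPKM in Ad-Con and 7.18, 7.40 and 7.09 FPKM in Ad-PDK4. Replicates lay close together in both groups and the gap between the groups was far larger than their spread. The mean was 19.1 ± 0.877 FPKM in Ad-Con and 7.22 ± 0.16 FPKM in Ad-PDK4, and Klf10 changed by −1.39 ± 0.06 on the log2 scale, which leaves 0.382 of the Ad-Con level (95% interval 0.349 to 0.419, limma adjusted p = 1.5e-06). Klf9 (ENSMUSG00000033863, chr19, plus strand, with an end that differs between the table and GENCODE M21), a target of glucocorticoid and thyroid hormone receptors, measured 27.9, 27.6 and 27.5 FPKM in Ad-Con and 23.4, 24.2 and 24.1 FPKM in Ad-PDK4. The fall was small, but the replicates were tight enough to separate the groups. The mean of Klf9 was 27.7 ± 0.222 FPKM in Ad-Con and 23.9 ± 0.426 FPKM in Ad-PDK4, a change of −0.21 ± 0.05 on the log2 scale and a fold of 0.863 (limma adjusted p = 0.0069).

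Klf11 and Klf13 pointed downwards without passing. Klf11 (ENSMUSG00000020653, chr12:24651274-24662789, plus strand), the closest relative of Klf10, measured 3.22, 3.20 and 2.73 FPKM in Ad-Con and 1.798, 3.002 and 2.01 FPKM in Ad-PDK4. Ad-PDK4 replicate 2 lay within the Ad-Con range and the other Ad-PDK4 libraries lay below it. The log2 fold change was −0.44 (95% interval −0.86 to −0.02, limma adjusted p = 0.088), and without Ad-PDK4 replicate 2 it was −0.65 and passed (limma adjusted p = 0.0065). Klf13 (ENSMUSG00000052040, chr7:63886351-63938915, minus strand), known from the regulation of a chemokine gene in T cells, measured 6.46, 7.49 and 6.01 FPKM in Ad-Con and 5.54, 5.87 and 5.84 FPKM in Ad-PDK4. The groups did not overlap, by a narrow gap. The log2 fold change was −0.20 (95% interval −0.41 to 0.01, limma adjusted p = 0.11). Both genes passed with limma-voom on recovered reads, Klf11 at −0.47 (adjusted p = 0.014) and Klf13 at −0.20 (adjusted p = 0.043).

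**Figure D2:**
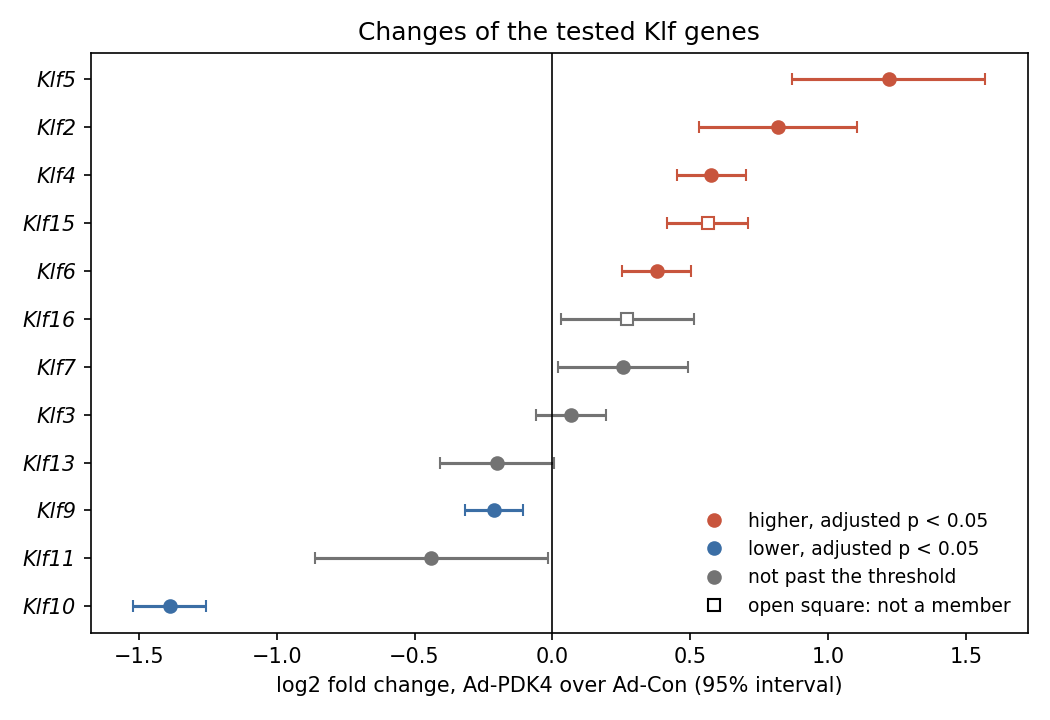
Log2 fold change of Ad-PDK4 over Ad-Con from limma with its 95% interval for the 10 members (filled circles) and for Klf15 and Klf16 (open squares), in red where higher and in blue where lower at an adjusted p below 0.05. Klf5 at 1.22 and Klf10 at −1.39 are the ends of the range, and the intervals of Klf3 and Klf13 cross 0.

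The order of the levels on the FPKM scale, which is per gene length, changed at its middle and less at its top. In Ad-Con the order of the mean levels was Klf6, Klf4, Klf9, Klf10, Klf3, Klf13, Klf2, Klf11, Klf5 and Klf7. The neighbours Klf6 and Klf4, Klf13 and Klf2, and Klf5 and Klf7 overlapped in their ranges over the 3 libraries, and the other neighbours did not. In Ad-PDK4 the order was Klf4, Klf6, Klf9, Klf3, Klf2, Klf10, Klf13, Klf5, Klf7 and Klf11. There the overlapping neighbours were Klf4 and Klf6, Klf13 and Klf5, and Klf7 and Klf11. Klf10 stood above Klf3 and Klf2 in every Ad-Con library and below both in every Ad-PDK4 library. Klf6, Klf4 and Klf9 were the strongest members in both groups.

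Summed over the family, the FPKM was higher in every Ad-PDK4 library than in any Ad-Con library, with a smaller share held by Klf10 and Klf9 and a larger share by Klf4, Klf6, Klf15, Klf2 and Klf5. The FPKM summed over the 17 Klf genes was 165 ± 1.84 in Ad-Con and 189 ± 3.82 in Ad-PDK4 (SD, n = 3 in each group, exact two-sided permutation p = 0.1, the smallest that 3 libraries against 3 allow). The 10 members held 87.2% of that sum in Ad-Con and 84.9% in Ad-PDK4. Klf4 held 18.7% of the sum in Ad-Con and 24.5% in Ad-PDK4, and Klf6 20.04% and 22.8%. Klf10 held 11.5% and 3.83%, and Klf9 16.8% and 12.7%. The difference in share was −7.72 percentage points for Klf10 and 5.77 for Klf4, both without overlap between the libraries of the groups. Klf2 held 3.20% in Ad-Con and 4.96% in Ad-PDK4, and Klf5 1.32% and 2.74%. Klf15, which is not among the 10 members, held 7.27% and 9.44%. Each of these shares gave the same exact permutation p = 0.1, which this design cannot go below, while the share of Klf7, 1.23% and 1.30%, gave an exact permutation p = 0.5.

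**Figure D3:**
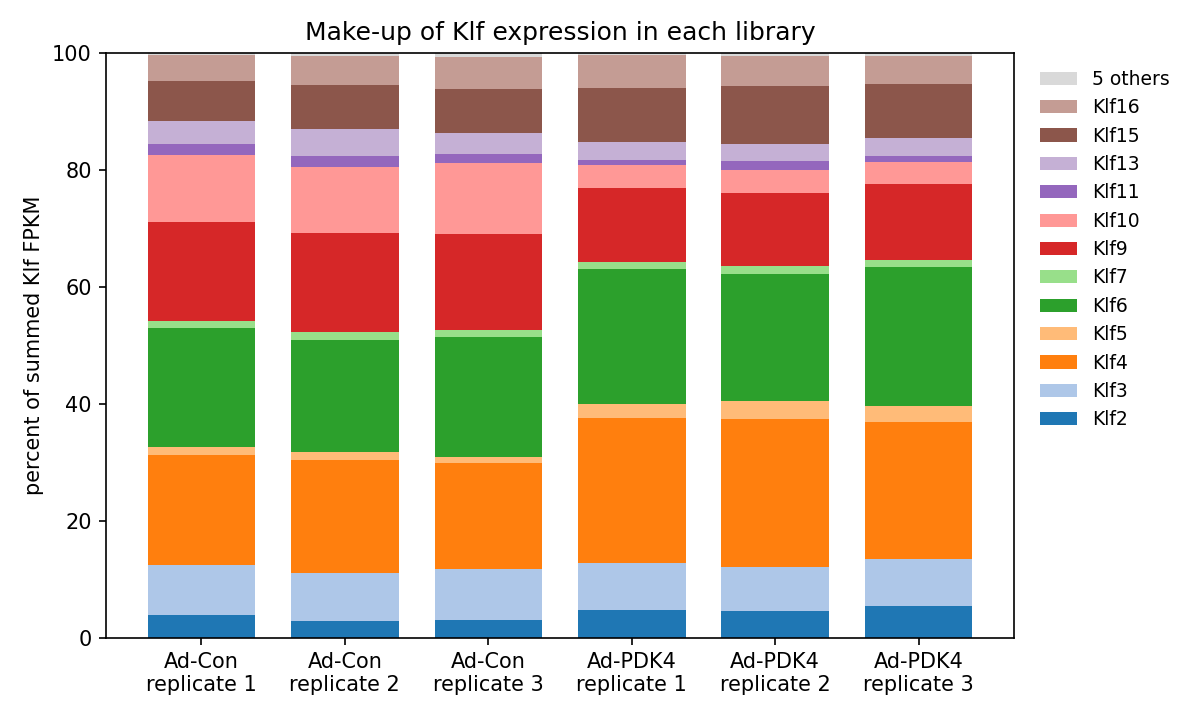
Percent of the FPKM summed over the 17 Klf genes that each gene held, 1 bar per library, with 5 weak genes joined. The band of Klf10 is narrow in the 3 Ad-PDK4 libraries, where it holds 3.83% on average against 11.5% in Ad-Con, and the bands of Klf4 and Klf6 are wider.

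The sign of the members' log2 fold changes, called or not, went with the position of the fingers in the coding sequence. This pattern was noticed after the values were seen and is given as a description. In Klf2, Klf4, Klf6 and Klf7 just 1 codon follows the last finger, in Klf5 2 codons and in Klf3 3 codons. In Klf9 19 codons follow, in Klf10 29, in Klf11 36 and in Klf13 39. All 6 members with the fingers at the end had positive log2 fold changes, 4 of them called, and all 4 with a longer tail had negative ones, 2 of them called. Over all tested genes 21.8% were called higher and 20.8% lower. The intervals of Klf3 and Klf13 crossed 0. Klf15 with 13 codons and Klf16 with 43 codons after the fingers, which are not among the 10 genes, had positive values. Klf8 and Klf12, with 3 codons and below the filter, had lower means in Ad-PDK4 with overlapping groups. Their means were 0.403 and 0.205 FPKM in Ad-Con and 0.288 and 0.0980 FPKM in Ad-PDK4. Klf1, with 1 codon and also below the filter, had a higher mean in Ad-PDK4 (0.311 and 0.443 FPKM), again with overlap. The pattern thus did not extend to the rest of the family.

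**Figure D4:**
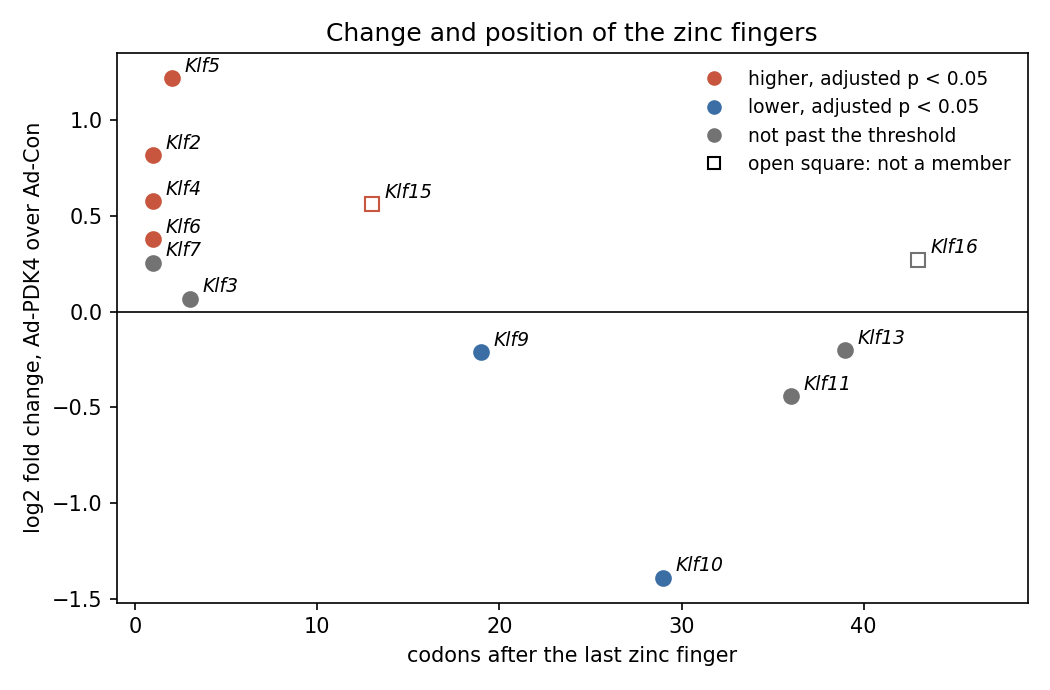
Log2 fold change of Ad-PDK4 over Ad-Con against the number of codons after the last zinc finger, for the 10 members (filled circles) and Klf15 and Klf16 (open squares), coloured by the limma call. Members with 3 codons or fewer lie above 0 and members with 19 or more lie below, while the open squares at 13 and 43 codons lie above 0.

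The family was set beside zinc finger genes at large. The table's own transcription factor annotation lists 559 other genes of the C2H2 zinc finger family, of which 399 passed the filter. Of these, 49 were called higher (12.3%) and 56 lower (14.0%), 26.3% in all against 42.7% of all tested genes. Their median log2 fold change was −0.005 and the median of its absolute size 0.20, against 0.16 and 0.41 for the 10 Krüppel-like factors. That difference was not tested, since the 10 genes had been picked with results known.

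**Figure D5:**
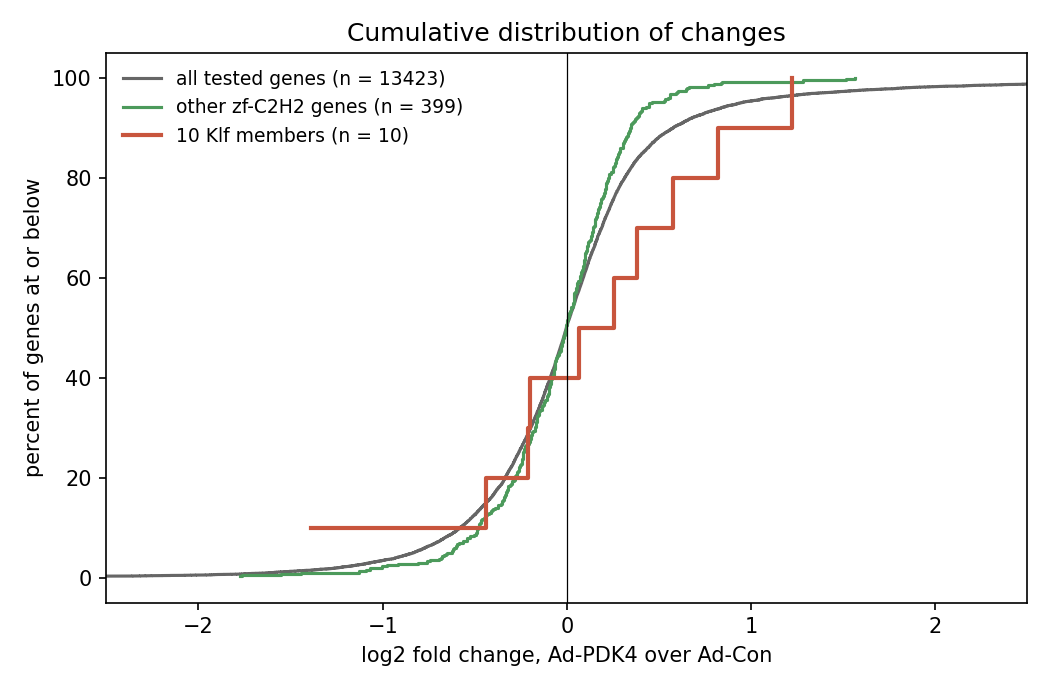
Cumulative percent of genes at or below each log2 fold change of Ad-PDK4 over Ad-Con, for all 13423 tested genes (grey), the 399 other tested zf-C2H2 genes (green) and the 10 members (red steps). The members spread from −1.39 to 1.22, wider than most of the green curve.

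Of the other 7 Klf genes, 2 passed the filter. Klf15, a factor of amino acid and glucose metabolism that is also known to restrain smooth muscle proliferation, measured 11.4, 12.2 and 12.4 FPKM in Ad-Con and 17.1, 19.0 and 17.3 FPKM in Ad-PDK4 and was called higher (log2 fold change 0.56, limma adjusted p = 0.00029). Its rise was close in size to that of Klf4. Klf16 had a log2 fold change of 0.27 (95% interval 0.03 to 0.51, limma adjusted p = 0.068) and passed in 5 of 16 alternatives. Klf1, the erythroid founder of the family, Klf8 and Klf12 had at most 43 reads in any library, and Klf14 and Klf17 had 0. Of the 9 Sp genes, 5 passed the filter. Sp5, a target of Wnt signalling, measured 0.819, 0.597 and 0.946 FPKM in Ad-Con and 2.04, 2.69 and 2.78 FPKM in Ad-PDK4, a rise of 1.56 ± 0.20 on the log2 scale (limma adjusted p = 0.00052). It rested on between 22 and 36 reads in Ad-Con and between 78 and 129 in Ad-PDK4. The widespread Sp1, Sp2, Sp3 and Sp4 did not pass, with log2 fold changes of −0.11, −0.05, 0.17 and 0.25, although Sp1 passed under quantile normalization (−0.18, limma adjusted p = 0.027) and Sp3 with the replicate number as a block (limma adjusted p = 0.046).

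Of 11 corepressor and coactivator genes, whose proteins Krüppel-like factors recruit, all were tested. Of these 3 were called higher, 3 lower and 5 not at all, where 21.8% of all tested genes were called higher and 20.8% lower, and the median log2 fold change was 0.03. The acetyltransferases Kat2b (0.36, limma adjusted p = 0.0026) and Ep300 (0.27, limma adjusted p = 0.01) rose, and the deacetylases Hdac1 (−0.37, limma adjusted p = 0.00078) and Hdac2 (−0.31, limma adjusted p = 0.0057) fell. Ctbp2, the partner of KLF3, was higher at 0.21 and Ctbp1 lower at −0.18 (limma adjusted p = 0.031 and 0.042), and these calls were lost in 7 and 8 of 16 alternatives. The Sin3 genes, partners of KLF9, KLF10, KLF11 and KLF13, had log2 fold changes of 0.03 (Sin3a) and −0.00 (Sin3b).

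Of 11 tested genes that act on the level or turnover of Krüppel-like factors, 2 were called higher and 2 lower, a smaller called share (36.4%) than the 42.7% of all tested genes, with a median log2 fold change of −0.08. Egr1, an immediate early factor, measured 50.5, 43.0 and 57.9 FPKM in Ad-Con and 15.1, 18.3 and 22.3 FPKM in Ad-PDK4 and fell by 1.45 on the log2 scale (limma adjusted p = 0.00075). Map2k5, the kinase upstream of ERK5, was lower (−0.32, limma adjusted p = 0.002). Mapk7, the gene of ERK5 itself, was not called (−0.18, limma adjusted p = 0.11). ERK5 is known for inducing Klf2 and Klf4, and its activity was not measured in these libraries. The glucocorticoid receptor gene Nr3c1 (0.21, limma adjusted p = 0.029) and the ubiquitin ligase gene Smurf1 (0.19, limma adjusted p = 0.031) were higher, each losing the call in 8 of 16 alternatives. Of 6 tested partners at smooth muscle promoters, where KLF4 is known to oppose the serum response factor complex, Srf (0.63, limma adjusted p = 0.0082) and Mkl1 (0.35, limma adjusted p = 0.0065) were higher and Elk3 (−0.33, limma adjusted p = 0.0013) was lower, so that 3 were called.

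Of 17 genes known from other work as targets of these factors 13 passed the filter. Of these 5 were called higher and 4 lower, where 21.8% and 20.8% of all tested genes were, with a median log2 fold change of 0.11. Cdkn1a was called higher at 0.23 (limma adjusted p = 0.022) and Tgfb1 lower at −0.34 (limma adjusted p = 0.0037). Pdgfa (0.08, limma adjusted p = 0.39) and Ccnd1 (0.20, limma adjusted p = 0.074) were not called. Nos3, below the filter, had means of 0.153 FPKM in Ad-Con and 0.0733 FPKM in Ad-PDK4, with overlapping groups. Thbd, the thrombomodulin gene that KLF2 and KLF4 activate in endothelium, was higher at 0.56 (limma adjusted p = 4.8e-05), as was Smad7, the inhibitor of TGF-beta signalling, which KLF10 is known to regulate, at 0.44 (limma adjusted p = 0.0034). Acta2, which KLF4 represses, was lower at −1.11 (limma adjusted p = 5.3e-06), with 76.9, 78.7 and 78.4 FPKM in Ad-Con and 33.5, 38.0 and 37.2 FPKM in Ad-PDK4. Of 4 glucocorticoid-responsive genes in the list, Fkbp5 was lower at −0.82 (limma adjusted p = 0.00079), Per1 was higher at 0.35 (limma adjusted p = 0.018), and Tsc22d3 (−0.11) and Dusp1 (0.11) were not called. Pparg, the adipogenic nuclear receptor gene, was lower at −0.45 (limma adjusted p = 0.0033). No binding of any Krüppel-like factor was measured in these libraries.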

How the data were processed

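Gene expression was measured by paired-end RNA sequencing in 6 libraries, 3 for each group of treatment labels, with replicate numbers from the titles. The submitters' processing notes name CASAVA 1.8, fastp, HISAT2 2.0.5, featureCounts 1.5.0-p3, DESeq2 1.20.0 and the build GRCm39. The deposited coordinates match GENCODE M21 on GRCm38 instead, with 98.3% of 54409 matched identifiers at the same place, so coordinates are given on GRCm38. The labels name a SMARTER kit and the methods a NEBNext Ultra kit, and use of strand is not given in the sources used here. The authors deposited 1 table of FPKM per gene and library, without pooling, with the gene length behind each value. FPKM times length gave whole reads for 100% of values within a tolerance of 0.01. The authors' values were already scaled by median-of-ratios size factors, since the library size behind FPKM equalled that factor times the mean total (ratio 1.0). FPKM depends on gene length as annotated, and reads shared with another gene can be lost from it.

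The groups were compared with limma 3.58.1 (R 4.3.3) on log2(FPKM + 0.1), with trend and robust moderation and no covariates. P-values were adjusted by Benjamini-Hochberg over the 13423 genes whose mean reached 0.5 FPKM. Called means an adjusted p below 0.05. Every adjusted p is from limma and every log2 fold change is on that scale except under limma-voom or another pseudocount, so changes of weak genes are understated. The fit was tested on simulated data. Shares of summed FPKM were compared by exact two-sided permutation. No replicates were duplicates by a chi-square of their reads. The check of whether equal replicate numbers pair libraries gave no pairing. Intervals are 95% and cover the spread between libraries. The alternatives were pseudocounts of 1 and 0.01, no filter or a mean FPKM of at least 5, TPM, quantile and mtDNA-free scaling, plain moderation, the block, voom and leaving out each library.

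The members, gene lists and marker lists were chosen with earlier results of these data known. Named genes were all members, the other Klf and Sp genes, and in each list of regulators, partners and targets the 3 largest called rises and falls, with Pdk4 and Acta2 as checks. The result of 1 gene among the reported targets is not reported here. Some genes were picked with their values in view, outside that rule. These were Gm26649, Sin3a, Sin3b, Mapk7, Cdkn1a, Tgfb1, Pdgfa, Ccnd1, Nos3, Tsc22d3, Dusp1 and the cell type markers other than Acta2. Promoter windows came from RefSeq (GRCm38.p6), coding sequence from GENCODE M21, and motifs were searched on both strands.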

Additional observations from a re-analysis of the deposited data

How the results depend on the processing

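Klf2, Klf4, Klf5, Klf6, Klf9 and Klf10 kept their direction and their call in every alternative run, and Klf3 passed in none. Klf5, Klf7 and Klf11 could not be tested with a minimum mean FPKM of 5. The log2 fold change of Klf7 passed after rescaling to TPM (0.30), with neither trend nor robust moderation (0.26) and with limma-voom on recovered reads (0.26). Under limma-voom Klf11 (−0.47) and Klf13 (−0.20) passed too, which made 4 members lower in place of 2. Leaving out 1 library in turn gave Klf11 values from −0.65 to −0.30, of which the first, without Ad-PDK4 replicate 2, passed. Over all tested genes, calls of at least 2-fold numbered 530 higher and 360 lower. A minimum mean FPKM of 5, under which fewer genes were tested, gave 258 higher and 114 lower, and a pseudocount of 1, which shrinks changes of weak genes, gave 153 lower. Over all genes the median change, −0.003 on the log2 scale as reported, lay between −0.035 (quantile normalization) and 0.037 (TPM) under the rescalings. No gene's log2 fold change changed sign in the alternatives run for it, while the median over all genes did.

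Deviations of libraries with the same replicate number correlated at −0.046, −0.031 and −0.001, so the numbers are not taken to pair the libraries. With the replicate number as a block, Klf4 (0.58), Klf5 (1.22) and Klf10 (−1.39) kept their calls, 4 members were higher and 2 lower, and no member's call changed. With 3 libraries a group, the difference of Klf13 (−0.20 ± 0.09, SE) lies near what that gene's own spread lets the test resolve. Klf9, of nearly the same size at −0.21 ± 0.05, passed. Klf7 and Klf11, which did not pass, rest on between 142 and 429 reads per library.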
